A study of Xenopus laevis with 2 samples.

Results

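Animal caps that carried active EBF3 were compared with animal caps that carried hGR alone, with dexamethasone (DEX) present on both sides. An animal cap is the piece of prospective ectoderm at the top of a *Xenopus laevis* blastula, which becomes epidermis when cultured on its own. Embryos received 1 ng of mRNA for hGR-Xebf3, which is *Xenopus* EBF3 joined to the part of the human glucocorticoid receptor (hGR) that binds hormone, or 0.4 ng of mRNA for the hGR domain without EBF3. No Noggin was injected on either side, caps were cut at stage 9, and both kinds were kept in 30 µM DEX for 4.5 hours. Each was labelled with Cy3 on its own Agilent array, and Cy5 on both arrays carried caps with hGR-Xebf3 that had no DEX. For every probe the log2 ratio of Cy3 over Cy5 on the hGR array was subtracted from the same ratio on the active EBF3 array, so a positive difference means a higher level in active EBF3 caps. Of 21495 gene probes, 9944 (46.3%) entered this comparison, because they had no non-uniform spot and were well above background in both dyes on both arrays.

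EBF proteins (also called COE or Olf/Ebf) are zinc finger and helix-loop-helix transcription factors that act in neurons, blood and muscle. The fusion protein is held inactive until the hormone binds it, so DEX switches it on at a chosen time. Uninjected cap ectoderm makes BMP signals, which maintain ventral regulators such as the Vent homeobox proteins and GATA2 and lead on to epidermal keratins. Where BMP signalling is blocked, ectoderm turns to neural plate genes.

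There was 1 biological replicate and 1 array per group, so the differences carry neither a replicate error nor a p-value. The arrays lay on different slides, and the mRNA doses differed, so neither slide nor dose can be told apart from the group. The only spread that could be measured was that of the Cy5 channel, which held the same kind of material on both arrays. The sources used here do not say whether it was 1 RNA extract, so this spread may be technical only. Over the 9944 probes the log2 difference between the Cy5 signals had an SD of 0.16 around a median of 0.24, and 28 probes (0.282%) differed at least 2-fold. The software's own error of a difference, which covers spot error only, had a median of 0.25. In bulk RNA of whole caps, fewer cells of a type and less RNA per cell cannot be told apart. The probes of the L and S copies of a gene, from the duplicated genome of this frog, are named as the array or RefSeq gives them, and hybridization between copies was not tested.

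Most genes had like ratios on both arrays. The median difference was 0.01 with an SD of 0.61, and 80% of the probes lay within 0.5 of 0. At least 2-fold higher with active EBF3 were 306 probes (3.08%), and at least 2-fold lower were 347 (3.49%), together 653 (6.57%). With the Cy3 signals of the arrays compared directly, without Cy5, the median moved to 0.26 and the numbers were 505 higher and 257 lower, and with another background correction (normexp) they were 180 and 203. At 5-fold the ratio-based numbers were 56 (0.563%) and 73 (0.734%). Median Cy3 signals of the higher probes were 3844 in active EBF3 caps and 884 in hGR caps, and those of the lower probes were 1082 in active EBF3 caps and 3445 in hGR caps.

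Both arrays use the same kind of untreated caps as the denominator, so their ratios are given side by side. Among the 306 higher probes, the median ratio with active EBF3 was 1.13 and that with hGR -0.41. A ratio of at least 1 on the active EBF3 array was seen in 171 of them, and 72 had a ratio of -1 or less on the hGR array. Among the 347 lower probes, the median ratio with active EBF3 was -1.13 and that with hGR 0.44. There, 191 had a ratio of -1 or less on the active EBF3 array, and 44 had at least 1 on the hGR array.

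**Figure D1:**
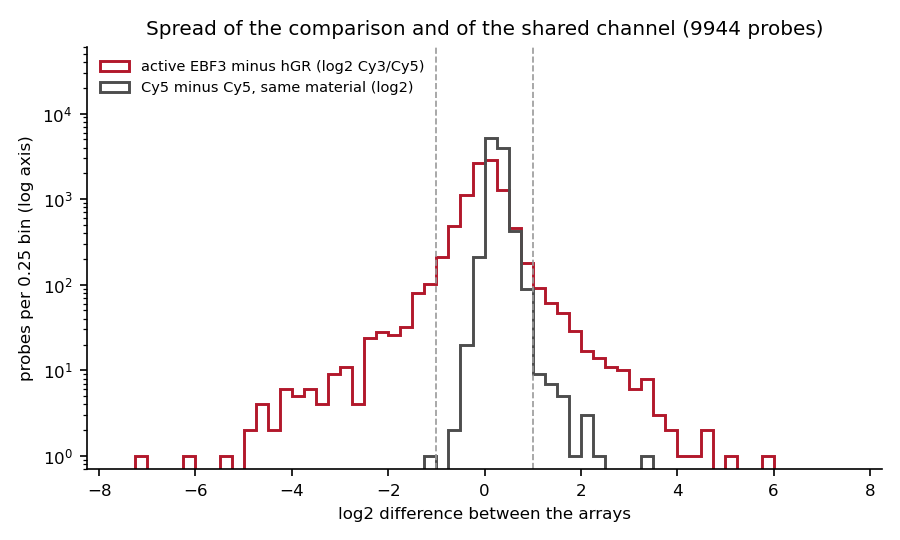
Histogram of the log2 difference between the arrays for 9944 probes in bins of 0.25, with probe numbers on a log axis. The red outline is active EBF3 minus hGR in the ratio of Cy3 over Cy5 (SD 0.61), the grey outline is the Cy5 signal of the active EBF3 array minus that of the hGR array (SD 0.16), and dashed lines mark 2-fold.

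**Figure D2:**
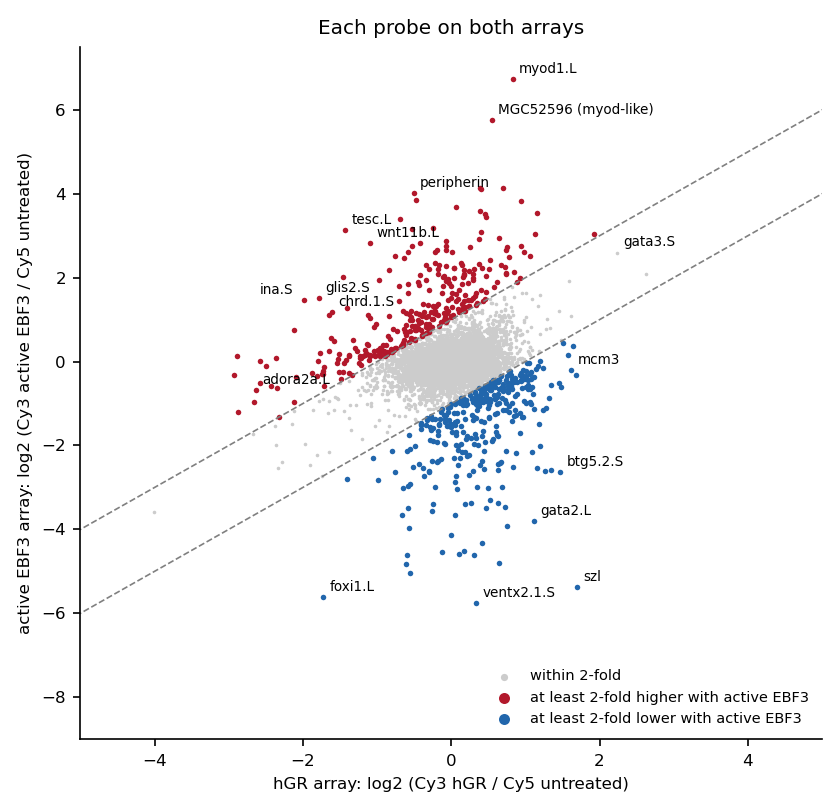
Log2 ratio of Cy3 over Cy5 for active EBF3 (vertical) and for hGR (horizontal), 1 point per probe. Red points are the 306 probes at least 2-fold higher and blue points the 347 at least 2-fold lower with active EBF3, beyond the dashed lines where the ratios differ by 1 on the log2 scale.

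Some of the highest named genes were regulators or structural genes of muscle, notochord or neurons, and others, such as Wnt and FGF ligand genes, were of other kinds. The ranking takes members that the array annotation names, with 1 probe per gene. The *peripherin* and *kcnk5* probes, identified only through the study's own list, stand outside it with differences of 4.53 and 3.07 and are described with the candidate genes. The *myod1* probe (the myogenic bHLH factor that starts the muscle program) had Cy3 signals of 68880.1 in active EBF3 caps and 437 in hGR caps, with Cy5 signals of 645 beside active EBF3 and 246 beside hGR. Its difference was 5.91 with a spot error of 0.62. A probe for a second sequence described as similar to it, MGC52596, had Cy3 signals of 157246 in active EBF3 caps and 399 in hGR caps, a difference of 5.22. On both of these probes the Cy3 signal of active EBF3 caps was the highest of the 4 channels, and the other 3 lay between 246 and 2893. *tesc*, which encodes the calcium-binding protein tescalcin, gave 8630.1 in active EBF3 caps and 275 in hGR caps, a difference of 4.57. *wnt11b*, a Wnt ligand of cell movement, gave 25579.9 in active EBF3 caps and 1260.1 in hGR caps, a difference of 3.91. Both *tesc* and *wnt11b* were below the untreated caps on the hGR array, with ratios of -1.43 and -1.09. Next came *foxa1* (3.77), a probe named *wnt-2* (3.72), the small heat shock protein gene *hspb7* (3.69), and *ina* (3.46), which encodes the neuronal intermediate filament protein alpha-internexin. The list of the 15 highest closed with *glis2* (3.30), the collagen gene *col9a3* (3.28), *flrt3* (3.25), *lmo2* (3.21), *fgf8* (3.11), the notochord homeobox gene *not* (2.97) and the kinase gene *nuak2* (2.93).

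At the low end stood ventral and epidermal genes. The *sizzled* probe *szl* (a secreted protein of the ventral centre that spares chordin from its proteases) had Cy3 signals of 458 in active EBF3 caps and 56579 in hGR caps, with Cy5 signals of 19051 beside active EBF3 and 17459 beside hGR. Its difference of -7.07 (spot error 0.49) is 135-fold, and the gene was below the untreated caps on the active EBF3 array (-5.38) and above them on the hGR array (1.70). The S copy of *ventx2.1*, a homeobox gene that BMP signals switch on, gave 1220.0 in active EBF3 caps and 72848 in hGR caps, a difference of -6.10, and its L copy was at -5.45. *gata2*, a zinc finger regulator of ventral ectoderm and blood, gave 1060.4 in active EBF3 caps and 31468 in hGR caps (-4.92). The Ets factor gene *elf1* gave 338 in active EBF3 caps and 9269 in hGR caps (-4.92). A type I cytokeratin of the gastrula epidermis gave 3248 in active EBF3 caps and 74385 in hGR caps (-4.70). For these 3 genes the active EBF3 ratio was -3.81, -4.61 and -4.52, and the hGR ratio was 1.11, 0.31 and 0.18. Also among the 15 lowest were *ventx2.2* (-4.69), the Kruppel-like gene *klf17*, once called neptune (-4.48), the syntaxin gene *stx19* (-4.41), *krt70* (-4.22), a *trim29*-like gene (-4.13) and *btg5.2* (-4.10). The last of them were a cadherin listed as XTCAD-1 (-4.01), *bambi* (-4.00), the epidermal protease gene *xepsin* (-3.95) and *hs3st1* (-3.93), which encodes a sulfotransferase of heparan sulfate. The difference was computed in 7 ways, all from the same 2 arrays. The reported way is 1 of them, and the deposited log ratio, the authors' table and Aquantile scaling repeat its values by construction. Only the remaining ways could disagree. All 30 genes of this ranking lay past 2-fold in the same direction in each of the 7 ways. Of the 128 genes past 2-fold that the naming rules selected, 20 came within 2-fold in at least 1 of them, among those described below *foxd3*, *hes5.10*, *nr4a1*, *tfap2a*, *eef1a1o*, *dynlt3*, the L copy of *rgs4*, the S copy of *krt70*, the protocadherin gamma and *protocadherin 18* genes, the villin-like gene and the hatching enzyme entry LOC398485, and 0 changed sign. Genes described below that the rules did not select were not part of this count. With Cy3 alone, *pdgfra* (-0.60), the S copy of *lunatic fringe* (-0.82), *dnajb9* (-0.88) and *tll1* (-0.98) were among those within 2-fold.

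**Figure D3:**
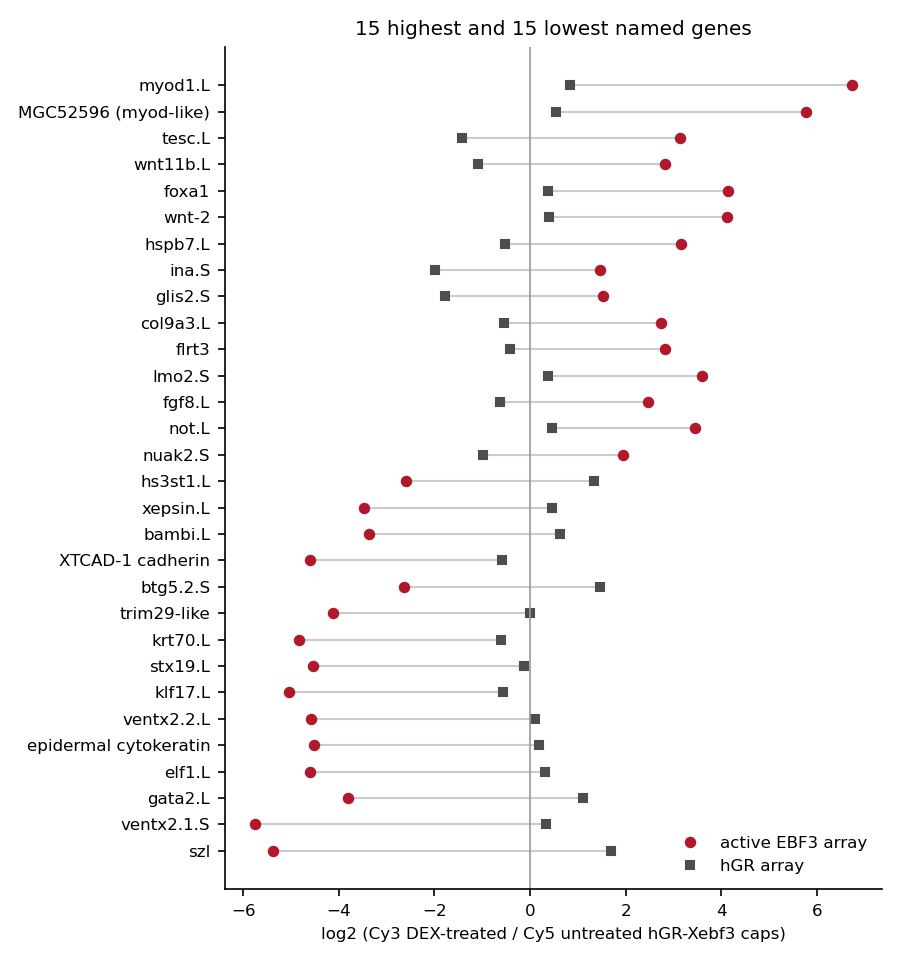
Log2 ratio of Cy3 (DEX-treated caps) over Cy5 (untreated hGR-Xebf3 caps) for the 15 highest and 15 lowest named genes, ordered by the difference. Red circles are the active EBF3 array and grey squares the hGR array; in the upper 15 genes every circle lies to the right of its square and in the lower 15 to the left.

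The annotation names a gene for 3010 of the 9944 members (30.3%). Of these, 124 (4.12%) were higher, 147 (4.88%) were lower, and 271 (9.00%) were past 2-fold either way. These percentages are the ones against which the classes below are read. The named genes were sorted by key words into 40 functional classes, which held 1276 members, 58 of them in more than 1 class. Of the 1276, 172 (13.5%) were past 2-fold, against 5.71% of the named genes in no class. A class can therefore exceed 9.00% and still lie below the percentage for all classified members. Differences were most frequent among transcription factors, where 19 of 137 members were higher and 24 lower (31.4%). Blood and stress genes followed with 8 of 57 higher and 5 lower (22.8%), cell surface and matrix genes with 7 of 77 higher and 8 lower (19.5%), and signalling genes with 22 of 286 higher and 27 lower (17.1%). Cytoskeleton genes had 4 of 70 higher and 5 lower (12.9%), transport genes 4 of 75 higher and 4 lower (10.7%), and metabolic genes 5 of 119 higher and 7 lower (10.1%). Genes of cell growth (6 of 148 higher and 3 lower, 6.08%), of RNA and protein synthesis (5 of 180 higher and 6 lower, 6.11%) and of protein fate (4 of 161 higher and 5 lower, 5.59%) were below the percentage for all named members. The classes did not shift as wholes, since the median difference lay within 0.25 of 0 in 36 of the 39 classes with at least 5 members. It was lowest for the 10 Ets and Runt members (-0.42) and highest for the 6 T-box members (0.60), beside 0.01 for all members.

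**Figure D4:**
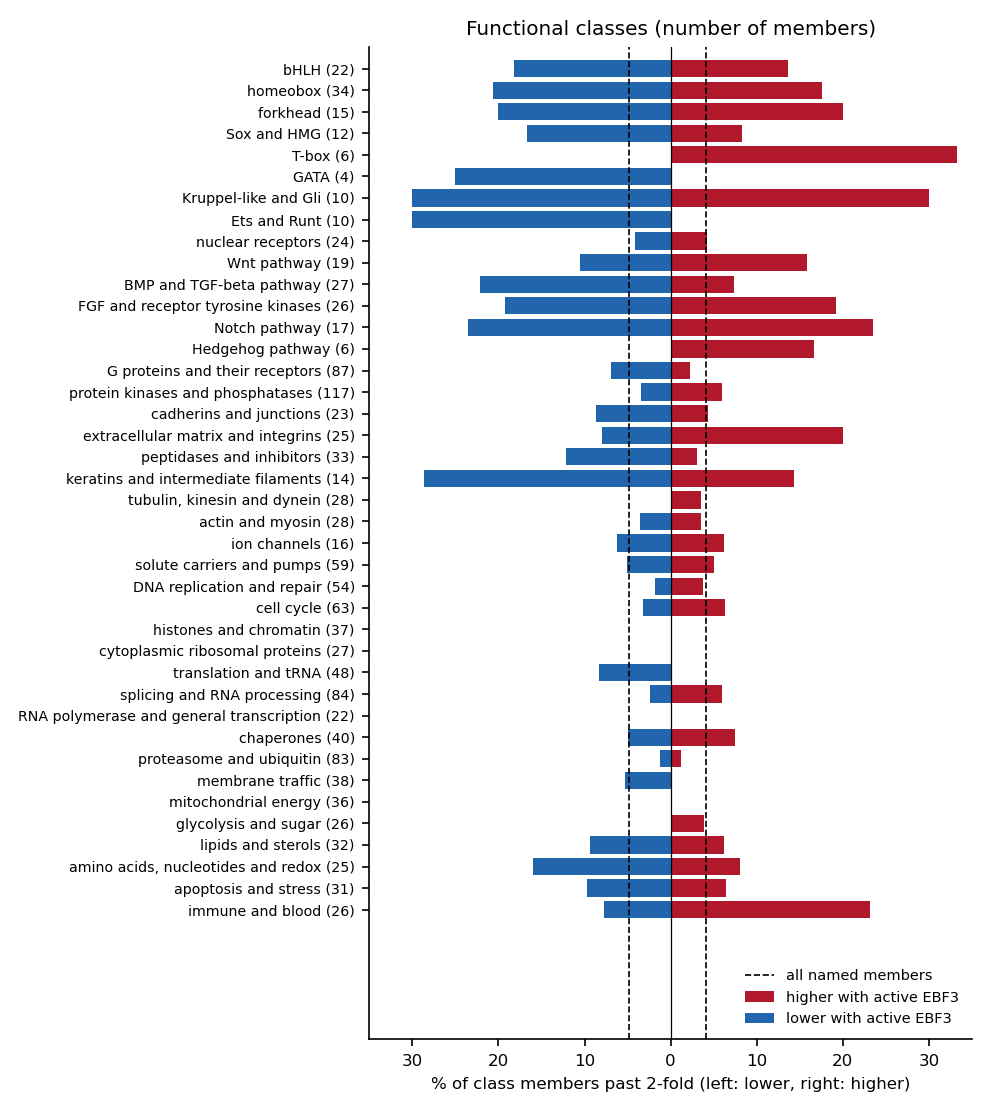
Percentage of the members of each functional class that were at least 2-fold higher (red, to the right) or lower (blue, to the left) with active EBF3 than with hGR. The number of members stands beside each name, and dashed lines mark the percentages for all named members, 4.12% higher and 4.88% lower.

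Among transcription factors, the homeobox class had 6 higher and 7 lower of 34. *not* had Cy3 signals of 95165 in active EBF3 caps and 6656 in hGR caps. Also higher were *hoxd1* (2.36) and *pax7* (2.00), a regulator of dorsal neural tube and muscle precursors. Lower beside the Vent genes was *dlx5*, a gene of the non-neural ectoderm, with 14052 in active EBF3 caps and 58402 in hGR caps (-2.08). The bHLH class had 3 higher and 4 lower of 22, and 5 of the 7 lay between -1.71 and 1.28, far from the 5.91 of *myod1*. They include an L-myc gene (-1.71), and *hes5.10*, an epidermal enhancer-of-split gene (-1.40).

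Forkhead genes split evenly, with 3 higher and 3 lower of 15. *foxa1*, a regulator of endoderm and floor plate, had 9908 in active EBF3 caps and 416 in hGR caps. The probe *xfd-13* was at 2.89 and the neural crest gene *foxd3* at 1.89. On the other side *foxi1*, a forkhead gene of the ectoderm, had 1728 in active EBF3 caps and 21102 in hGR caps. It was below the untreated caps on both arrays, with ratios of -5.61 for active EBF3 and -1.72 for hGR, so its difference of -3.89 sets a larger fall against a smaller one. Kruppel-like and Gli genes had 3 higher and 3 lower of only 10 members. *glis2* (4125 in active EBF3 caps and 360.2 in hGR caps), the neural crest gene *snai1* (2.26) and *klf10* (1.93) were higher, and *klf17* (3925 in active EBF3 caps and 73421 in hGR caps) and *klf2* (-3.71) were among the lower ones.

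Sox and related HMG genes had 1 higher and 2 lower of 12. *sox2*, which marks neural progenitors, had 64448 in active EBF3 caps and 11487 in hGR caps (1.97). Its relative *sox3* had 128732 in active EBF3 caps and 85614 in hGR caps. Its difference in the ratio to Cy5 was 0.38, within 2-fold. *sox9* was at -1.81 by 1 probe and at -0.77 by another, and *tcf3*, a DNA-binding partner of beta-catenin, at -2.37. In the small T-box class 2 of 6 entries were past 2-fold, *Xombi* (1.17) and *Brat* (1.25). Both are names of 1 mesodermal T-box gene, *vegt*, so they do not count as 2 genes. *Xombi* was near the untreated level on the active EBF3 array (0.26) and below it on the hGR array (-0.91). *Brat* was above the untreated level with active EBF3 (0.64) and about as far below it with hGR (-0.61). *gata2* was the 1 of 4 GATA probes past 2-fold. *gata3*, in contrast, was above the untreated caps on both arrays, by 2.60 with active EBF3 and 2.24 with hGR, and its difference was 0.36. Both *elf1* probes were lower (-4.92 and -3.58). Of 24 nuclear receptor genes, *nr4a1* was higher (1.02) and the retinoic acid receptor gene *rarg* lower (-1.62), which leaves this class at 8.33%, below the 9.00% of all named members.

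In the BMP and TGF-beta pathway 2 of 27 members were higher and 6 lower. BMP ligands signal through Smad proteins, chordin and gremlin hold the ligands back outside the cell, and BAMBI and Smad7 are feedback inhibitors that BMP itself induces. *chordin* had 4394 in active EBF3 caps and 555 in hGR caps, a difference of 2.78 with ratios of 1.17 for active EBF3 and -1.61 for hGR. *gremlin* was higher by 1.34. The ligand gene *bmp7* was lower by 2 probes, and the brighter one had 51425 in active EBF3 caps and 118676 in hGR caps (-1.26). The dimmer *bmp7* probe had 258 in active EBF3 caps and 1841 in hGR caps (-3.08). In Cy3 of active EBF3 caps, signals up to 281 could still be not well above background. The 258 lies below that, so the size of the difference on the dimmer probe is uncertain. *bambi* had 9529.5 in active EBF3 caps and 144125 in hGR caps (-4.00). *smad7* was at -1.56, *twsg1*, which encodes a chordin and BMP binding protein, at -2.05, and *tll1*, a protease gene of the tolloid family that cuts chordin, at -1.20. *smad6*, an inhibitory Smad gene of the same family as *smad7*, was at -0.29, within 2-fold.

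FGF and receptor tyrosine kinase genes had 5 higher and 5 lower of 26. The ligand gene *fgf8* had 10575 in active EBF3 caps and 1046 in hGR caps. *dusp6*, a phosphatase of ERK that FGF signals induce, had 25861 in active EBF3 caps and 3467 in hGR caps (2.65). The receptor gene *fgfr2* was at 1.20 and *epha2* at 1.52. Lower were the receptor gene *fgfr4* (-2.41) and 3 genes of the PDGF branch, the ligands *pdgfb* (-2.77) and *pdgfa* (-2.09) and the receptor *pdgfra* (-1.06). The Notch pathway had 4 higher and 4 lower of 17. A *delta-like 1* gene, which encodes a ligand, was the lowest, with 919.5 in active EBF3 caps and 7741 in hGR caps (-3.35), and both *lunatic fringe* probes, whose enzyme sugars the receptor, were lower (-1.21 and -1.06). Higher were the Notch target *nrarp*, with 55826 in active EBF3 caps and 16017 in hGR caps (1.71), the ligand *jag1* (1.31), *hes7.1* (1.28) and the receptor *notch1* (1.20).

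Of 19 Wnt pathway members 3 were higher and 2 lower, with *szl* counted here because the array describes it as a Wnt8 inhibitor. Beside *wnt11b* and the *wnt-2* probe (12019.5 in active EBF3 caps and 636 in hGR caps), the receptor genes *fzd2* (1.27) and *fzd3* (-2.44) differed in opposite directions. In the Hedgehog class *glis2* was the 1 of 6 past 2-fold. G proteins and their receptors had 2 higher and 6 lower of 87, a percentage of 9.2 that is close to that of all named members. The receptor gene *adora2a* was the highest of them (1.95), though it was below the untreated level on both arrays, by -0.68 with active EBF3 and -2.64 with hGR. The small GTPase genes *ras-dva1* (-3.70) and *rhou* (2 probes, -2.55 and -1.33) were lower. Kinases and phosphatases had 7 higher and 4 lower of 117 (9.4%). *nuak2* had 81249 in active EBF3 caps and 8742 in hGR caps, and both copies of the kinase gene *hunk* were lower (-2.24 and -2.13).

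At the cell surface, matrix and integrin genes had 5 higher and 2 lower of 25. *col9a3* had 5893 in active EBF3 caps and 426 in hGR caps, and *flrt3*, whose membrane protein binds FGF receptors, had 3914 in active EBF3 caps and 281 in hGR caps. The integrin genes *itga3* (2.61) and *itgb5* (1.16) were also higher. The 2 lower ones were entries for enzymes of hyaluronan synthesis, *has-rs*, with 47606 in active EBF3 caps and 684619 in hGR caps (-3.82), and DG42 (-3.35). Of 23 cadherin and junction genes, the XTCAD-1 cadherin (-4.01) and a protocadherin gamma gene (-1.23) were lower and a *protocadherin 18* gene was higher (1.25), while the E-cadherin gene *cdh1* was at -0.63. Peptidases had 1 higher and 4 lower of 33. Lower were *xepsin*, with 778 in active EBF3 caps and 10506 in hGR caps, and 2 hatching enzyme entries (Xhe at -2.39 and LOC398485 at -1.23), whose protease dissolves the egg membrane.

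Intermediate filaments had 2 higher and 4 lower of 14, a count that leaves out *peripherin* because the array does not name it. The 4 lower ones were keratins, among them *krt70* by its L copy, with 1098 in active EBF3 caps and 16609 in hGR caps (-4.22), and by its S copy. On the S copy probe Cy5 was saturated on the hGR array, so its difference of -1.09 is not a full measurement, and Cy3 alone differed by -0.56. *krt12.5* was at -2.14. The 2 higher ones were *ina*, with 27379 in active EBF3 caps and 2205 in hGR caps, and the *vimentin* entry of the S copy (1.21), whereas that of the L copy was at -0.43. The simple epithelial keratins *krt8* (0.30) and *krt18* (0.38) stayed within 2-fold. Tubulin, kinesin and dynein genes had 1 past 2-fold of 28, *dynlt3* (1.14). Of 28 actin and myosin genes, the muscle light chain gene *myl4* was higher, with 2018 in active EBF3 caps and 284 in hGR caps (2.30), and a villin-like gene was lower (-1.26).

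Transport genes were near the background. Of 59 solute carriers and pumps 3 were higher and 3 lower, with the glucose transporter *slc2a1* at the top, 5124 in active EBF3 caps and 673 in hGR caps (2.56), and *slc22a4*, a carrier of organic cations, at the bottom, 2887 in active EBF3 caps and 20474 in hGR caps (-3.05). The proton pump gene *atp4a* was lower (-1.88). In amino acid and redox metabolism 2 of 25 were higher and 4 lower. The lower ones were *arginase* (-3.31), a glycine amidinotransferase gene, whose enzyme starts creatine synthesis from arginine (-2.93), *hal*, whose enzyme breaks down histidine (-2.57), and *txn2* (-1.86). Among 32 lipid and sterol genes 2 were higher and 3 lower. *cyp26a1*, whose enzyme degrades retinoic acid, had 2995 in active EBF3 caps and 19939 in hGR caps (-3.00), and the prostaglandin dehydrogenase gene *hpgd* was at -2.87, while a cytochrome P450 entry was at 2.69. Besides *slc2a1*, no gene of the 26 in the sugar class was past 2-fold.

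The machinery that all cells share differed least. No member was past 2-fold among 37 histone and chromatin genes, 27 cytoplasmic ribosomal protein genes, 22 RNA polymerase and general transcription genes or 36 mitochondrial energy genes, 122 members in all. Their median differences were -0.02, -0.12, -0.02 and 0.02. The ribosomal protein gene *rpl30* had 70575 in active EBF3 caps and 71466 in hGR caps. Proteasome and ubiquitin genes had 1 higher and 1 lower of 83, and DNA replication and repair genes had 2 higher and 1 lower of 54, the helicase subunit gene *mcm3* (-1.82). That gene was close to the untreated caps with active EBF3 (-0.20) and above them with hGR (1.62).

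In the cell cycle class 4 of 63 members were higher and 2 lower. The 2 lower probes were both copies of *ccne2*, the gene of cyclin E2, which drives entry into S phase. The L copy gave 3689 in active EBF3 caps and 15718 in hGR caps (-2.32), and the S copy was at -2.07. Higher were the kinase inhibitor *p16Xic2*, with 1467 in active EBF3 caps and 274 in hGR caps (2.38), *cyclin B5* (1.80), a *wee1*-like kinase gene (1.56) and *cyclin B4* (1.08). For *p16Xic2* and *cyclin B5* the active EBF3 caps stayed near the untreated level (-0.12 and 0.00), and the hGR caps lay below it (-2.49 and -1.79).

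Splicing and RNA processing genes had 5 higher and 2 lower of 84. The members that were higher are mostly tissue-specific RNA-binding proteins rather than splicing factors. They were *seb-4*, with 15109 in active EBF3 caps and 1837 in hGR caps (2.69), a related RRM protein gene (2.20), the neural progenitor gene *musashi* (1.90, with a second probe within 2-fold at 0.67), *elavl3*, a gene of early neurons, with 4757 in active EBF3 caps and 1009 in hGR caps (1.62), and *Cpeb1* (1.27). Translation genes had 0 higher and 4 lower of 48, with *eif4a2* at -2.24 and the oocyte form of elongation factor 1 alpha, *eef1a1o*, among them. Cy5 was saturated on both arrays for the *eef1a1o* probe, and its Cy3 signals alone differed by -0.86, within 2-fold. Of 40 chaperone genes 3 were higher and 2 lower. *hspb7*, a small heat shock gene of heart and muscle, had 15898 in active EBF3 caps and 953 in hGR caps, *fkbp9* was at 2.87, and *hsp47*, the collagen chaperone gene, was at 1.74. The lower ones were *pdia4* (-1.63) and *dnajb9* (-1.25). Like these, *fkbp9* and *hsp47* encode proteins of the endoplasmic reticulum, so chaperone genes of that compartment went both ways. *herpud1*, a gene of protein disposal there, was at -1.32, and *xbp1*, the transcription factor of the unfolded protein response, had 13128 in active EBF3 caps and 73036 in hGR caps (-2.85). In membrane traffic 2 of 38 were lower, *stx19*, with 1173 in active EBF3 caps and 21226 in hGR caps, and a clathrin light chain gene (-2.27).

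Immune and blood genes had 6 higher and 2 lower of 26. *lmo2*, a LIM-only cofactor of early blood and vessels, had 4690.1 in active EBF3 caps and 439.6 in hGR caps. The cytokine feedback gene *socs3* was at 2.20 and an *irf3*-like gene at 1.91, and both were below the untreated level on the hGR array (-1.63 and -1.65). *complement factor B* was lower (-2.33). Apoptosis and stress genes had 2 higher, *sesn1* (1.53) and *birc7* (1.53), and 3 lower of 31, with a growth arrest and DNA damage gene as the lowest (-2.15).

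Among the 1734 named genes in no class, 44 were higher and 55 lower (5.71%). They held several regulators that the key words missed. *prdm1* (a zinc finger repressor of cell fate choices) was at -3.16, *kctd15* (an inhibitor of AP-2 and of neural crest formation) at -3.87, the ectodermal *tfap2a* at -1.04 and the zinc finger gene *sall1* at -1.99. On the higher side were the membrane protein gene of striated muscle *popdc2*, with 7164 in active EBF3 caps and 525 in hGR caps (2.83), alkaline phosphatase (2.72) and *srf* (1.03), a factor that controls muscle and cytoskeletal genes. Members without a gene name held 180 further higher and 200 further lower probes, which reached 4.32 and -4.74, the *peripherin* and *kcnk5* probes not counted.

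Lists of markers of the cell types that caps can form were read beside these results. The epidermis list, which fits the tissue cut, had 17 of 27 probes well above background in Cy3 of active EBF3 caps and 17 in hGR caps, so the caps carried their own defining genes. Of its 15 members, 0 were higher and 8 lower, with a median of -1.04, and the Cy3 signals of the members summed to 781200 in active EBF3 caps and 1140160 in hGR caps. This sum and those of the other lists use Cy3 without Cy5. Over all members that signal was higher in active EBF3 caps by a median log2 difference of 0.26, and the sums are not corrected for it. The list of BMP-regulated ventral genes had 0 higher and 7 lower of 8 members with a median of -4.35, and its sums were 20116 in active EBF3 caps and 364281 in hGR caps. Every call in these lists was lower, beside 3.08% higher and 3.49% lower among all members.

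Mesoderm and organizer markers had 4 higher and 0 lower of 6 members, with sums of 119115 in active EBF3 caps and 14975 in hGR caps. The 4 include *Xombi* and *Brat*, which are entries for 1 gene. Without *not*, the sums were 23949 in active EBF3 caps and 8319 in hGR caps. *cer1* (0.18) and *eomes* (0.59) were the 2 within 2-fold. Muscle markers had 3 higher and 1 lower of 10, with sums of 318461 in active EBF3 caps and 68927 in hGR caps. Without *myod1* and MGC52596 they were 92335 in active EBF3 caps and 68091 in hGR caps. The 3 higher were *myod1*, its relative MGC52596 and *myl4*, whereas skeletal actin was at 0.11, *myogenin* at 0.04 and tropomyosin entries at -0.01 and 0.26. The neural plate list had 2 higher, *sox2* and 1 *musashi* probe, and 1 lower of 8 members, with sums of 283277 in active EBF3 caps and 140200 in hGR caps. A second *musashi* probe on the list was within 2-fold (0.67). *zic2* was at 0.85. Neural crest and placode markers had 3 higher, with *snai1* and *foxd3* among them, and 1 lower (*sox9*) of 6. Of 13 probes for neuronal markers, 4 were well above background in active EBF3 caps and 3 in hGR caps, and *elavl3* was the 1 that entered the comparison. Outside it, 1 probe each for *neurod*, NF-M and NF-L was well above background in Cy3 of active EBF3 caps only. The *myt1* probe (94 in active EBF3 caps and 840 in hGR caps) and a peripherin probe, plasticin, were so in Cy3 of hGR caps only. The members of the glucocorticoid-responsive list, *pck2* (-0.13), *klf9* (0.17) and *per1* (0.45), were within 2-fold. Their Cy3 sums were 38291 in active EBF3 caps and 31836 in hGR caps, beside the median Cy3 difference of 0.26 over all members. The probe *dsipi-prov*, for the glucocorticoid-induced leucine zipper, did not enter the comparison, since its Cy3 signal of 226 in active EBF3 caps was not well above background, against 1211 in hGR caps. Its Cy5 signal of untreated caps was 1541 beside active EBF3 and 1274 beside hGR. The hGR caps were thus near the untreated level (ratio -0.07), and the active EBF3 caps were below it (-2.77). The list of cilia and cement gland markers had 0 past 2-fold of 4 members. These 4 were *foxj1* and alpha-tubulin probes, so cement gland genes were not compared. The probe of the cement gland gene *agr2* was left out, with 95 in active EBF3 caps, not well above background, and 312 in hGR caps. A *pitx3* probe on the list was well above background in Cy3 of active EBF3 caps only (920, against 132 in hGR caps). The part of changed cell types in the other differences was not tested.

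**Figure D5:**
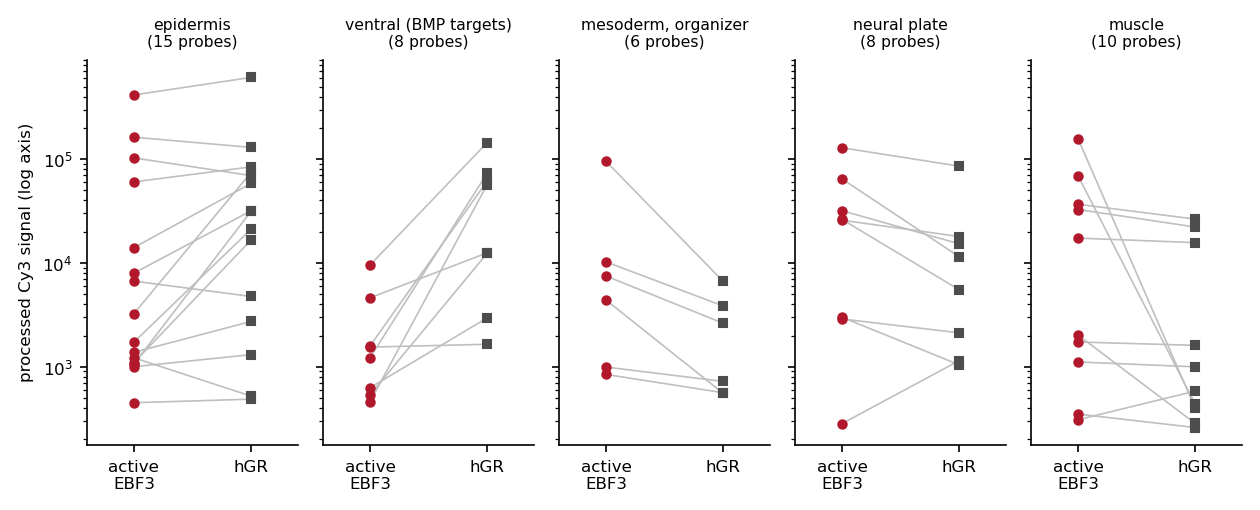
Processed Cy3 signal of the members of 5 marker lists on a log axis, with active EBF3 caps on the left and hGR caps on the right of each panel and 1 line per probe. The 8 ventral, BMP-regulated probes had a median difference of -4.35, whereas 4 of the 6 mesoderm and organizer probes were past 2-fold in the other direction.

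Of 14 genes that the study followed as candidate targets, 2 entered the comparison. *peripherin*, a neuronal intermediate filament gene, had 10697 in active EBF3 caps and 291 in hGR caps, with a difference of 4.53. *kcnk5*, a potassium channel gene, had 31046 in active EBF3 caps and 3104 in hGR caps (3.07). Of the other 12, *activin beta b* had a non-uniform spot and 11 were dim in at least 1 channel. In 10 of these, among them *neurod*, *nscl-1*, *aml1* and *emx1*, the probe was well above background in Cy3 of active EBF3 caps and not in Cy3 of hGR caps, and the *en-2* probe was dim in all 4 channels. The study chose the candidates for being higher on other arrays, of caps with Noggin. It also reported that each of the 14 rose with active EBF3 in caps without Noggin. That report rests on the series that holds the active EBF3 array used here, so it is no independent check. Its comparison was with untreated caps rather than with hGR caps in DEX. The *en-2* probe was too dim here to be compared. A second probe for peripherin, named plasticin, went the other way, with 108 in active EBF3 caps, not well above background, and 511 in hGR caps. A second *nscl-1* probe, XHEN1, was dim in all 4 channels (138 in active EBF3 caps and 117 in hGR caps). So was a second NF-M probe (211 in active EBF3 caps and 65 in hGR caps). A second *neurod* probe was well above background in Cy3 of active EBF3 caps only (2798, against 194 in hGR caps). Of the EBF genes themselves, 1 *ebf2* probe was a member (0.82), the other *ebf2* probe was not well above background in hGR caps, and the *ebf3* probe was not in any channel.

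A few genes were read by more than 1 probe. For 71 gene names, with L and S copies pooled, at least 2 probes matched to RefSeq were members, and 10 of these had a probe past 2-fold. Probes without a RefSeq match were not counted, so *elf1*, *bmp7*, *sox9* and *musashi*, each described above by 2 probes, are missing here. So is *vegt*, read as *Xombi* and *Brat*, both past 2-fold. In *sox9* and *musashi* 1 of the 2 probes was within 2-fold. In 5 of the 10 every probe was past 2-fold the same way, namely *ccne2*, *hunk*, *krt70*, *rhou* and *ventx2.1*, with the saturated *krt70* S probe counted. In *aqp3* and *arntl* the probes had the same sign but 1 stayed within 2-fold. In *cidea*, *rgs4* and *vim* the probes had opposite signs, with *rgs4* at -1.58 and 1.04.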

How the data were processed

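RNA of DEX-treated caps (Cy3) and of untreated hGR-Xebf3 caps (Cy5) was hybridized to 2 two-colour Agilent *Xenopus* arrays, 1 per group. Groups were taken from the stated treatment. Per the file headers, the deposited spot intensity values came from Feature Extraction 8.1.1.1 at 10 µm per pixel, with background subtraction, spatial detrending and LOWESS dye normalization (smoothing factor 0.25); the submitters' processing notes name the same version, and the methods of the study another version and resolution. The deposited log10 ratio is Cy5 over Cy3, and the authors' table of processed values holds the same log10 ratio with the sign turned (100% of values equal). The deposited error score of each log10 ratio was made by the extraction software and covers spot error only.

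The difference was log2 of processed Cy3 over Cy5 intensity on the active EBF3 array minus that on the hGR array, for gene probes with no non-uniform spot and well above background in all 4 channels. Probe dye bias alike on both arrays drops out of it. Calls used a 2-fold threshold and no test was possible. Left out were 276 probes for non-uniform spots and 11275 for dim signal, 8693 of them dim in all channels; 7 members were saturated in a channel and were kept. Depth is not defined for arrays, and the number of arrays limits the precision.

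Names came from the array description, the array gene name and RefSeq symbols of Xenopus_laevis_v10.1 (2143 members matched), and 2180 members had a description that names a protein. Classes and marker lists are key words searched in these names. Members, classes and lists were chosen with earlier results of these data known, and the key words were corrected after values had been seen. Genes named by rule were the 15 highest and 15 lowest, up to 4 past 2-fold per class (up to 2 nearest the class median where there was none), members of marker lists, and the 14 candidates, in all 168. Others, such as *xbp1*, *pax7*, *prdm1*, *popdc2*, *gremlin* and the Notch and PDGF genes after the first 4 of their class, were chosen after their values were seen. The calculation was tested on simulated data. Alternatives used limma 3.58.1 in R 4.3.3 and pandas 2.3.3. Genome positions and sequences were not used here, and some genes that the rules select are not reported here.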

Additional observations from a re-analysis of the deposited data

Results flagged for a closer look

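Probes well above background in Cy3 of only 1 of the 2 groups lay outside the comparison, because a probe had to be well above background in every channel. There were 1002 probes (4.66% of the gene probes) well above background in Cy3 of active EBF3 caps and not in Cy3 of hGR caps, and 345 probes (1.61%) the other way round. The Cy3 signals differed at least 4-fold in 129 of the 1002 and 44 of the 345. In the 1002 the median log2 difference of Cy3 was 0.77 toward active EBF3 caps, and in the 345 it was 0.65 toward hGR caps. Cy3 was also brighter on the active EBF3 array over all members, with a median of 2108 against 1747 on the hGR array. The 2 counts are not corrected for this, so they are not counts of genes switched on or off. A gene name was given for 230 of the 1002 and 71 of the 345. The hGR level of the first set is only a bound, so no fold is given for single genes. The cause was not tested.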

How the results depend on the processing

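The deposited log ratio, the authors' table and Aquantile scaling gave 306 probes higher and 347 lower, as reported. All of these hold the same ratios by construction, so they are no independent check. Comparing Cy3 directly, without Cy5, gave 505 higher and 257 lower around a median of 0.26. Of the reported probes, 305 higher and 254 lower stayed past 2-fold. Normexp correction with an offset of 50 and loess gave 180 higher and 203 lower, of which 180 and 200 were reported ones; an offset shrinks low signals by its construction. Without a filter on dim probes there were 1087 higher and 692 lower, of more probes tested. The 5-fold threshold left 56 and 73. Median centring (339 and 310), non-uniform spots kept (314 and 360), 1 bright channel per array (446 and 480), saturated spots left out (306 and 345) and 1 value per gene name (306 and 347) stayed within 1.5 times. Between 24 and 26 classes exceeded the percentage of all named members in the alternatives run for them. Of 200 class medians recomputed, 42 moved by more than the Cy5 SD of 0.16. No paired analysis was possible because 1 array was made per group and the groups share only the replicate number 1. Dim signal limits the comparison: a gene well above background in 1 group alone has no value in it.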

Other observations

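Among the 1002 probes well above background in Cy3 of active EBF3 caps and not in Cy3 of hGR caps were regulators of blood, muscle and the nervous system. Of the 1002, 622 also passed that background limit in both Cy5 channels, so untreated hGR-Xebf3 caps carried signal there too. Processed Cy3 signals of the blood regulator *tal1* (SCL) were 4589 in active EBF3 caps and 71.6 in hGR caps. The homeobox gene *hhex*, which acts in blood and endoderm, gave 4276 in active EBF3 caps and 72.9 in hGR caps. The myogenic factor gene *myf5* gave 3588 in active EBF3 caps and 67.4 in hGR caps. *hoxd10*, a homeobox gene of the posterior axis, gave 12158 in active EBF3 caps and 103 in hGR caps, and *phox2a*, a gene of autonomic neurons, gave 3565 in active EBF3 caps and 167 in hGR caps. *kremen2*, a Wnt inhibitor gene, gave 4583 in active EBF3 caps and 166 in hGR caps.

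In the other direction, a second *sizzled* probe gave 138, not well above background, in active EBF3 caps and 15782 in hGR caps. The ventral homeobox gene *PV.1* gave 157 in active EBF3 caps and 2375 in hGR caps, *irx2* gave 153 in active EBF3 caps and 2261 in hGR caps, and *cdx4*, a homeobox gene of the posterior axis, gave 123 in active EBF3 caps and 944 in hGR caps. These genes were picked after their values were seen.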
